A study of Mus musculus with 6 samples.

Results

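Renal stromal identity was followed through 7 genes, Foxd1, Tcf21, Meis1, Meis2, Pdgfra, Pdgfrb and Dcn, which were found by gene symbol among the 24532 genes of the expression table. All 7 were present once and passed the filter on low counts in every test. The measurements were bulk RNA-seq libraries of PN1 mouse tissue (the first postnatal day). Kidney was sequenced in 2 libraries from Ahnak KO and 2 from WT mice, and ureter in 1 library of each genotype. Per the study's methods, Ahnak KO mice carry a disruption of exon 5 of Ahnak. The labels name no treatment for any group. RNA came from 2 to 4 kidneys or ureters, so a library can hold several organs, and the number per library was not given. Ahnak encodes a very large scaffold protein, and the study compared KO with WT tissue to ask which genes its loss touches in the newborn urinary tract.

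The kidney interstitium, the mesangium and the pericytes of kidney vessels descend largely from stromal progenitors that express the forkhead factor Foxd1. Tcf21, a basic helix-loop-helix factor, and Meis1 and Meis2, homeobox factors of the TALE class, mark and shape this stroma, although Tcf21 is also made by podocytes. Pdgfra and Pdgfrb encode the alpha and beta receptors for platelet-derived growth factors. In many organs the alpha receptor is typical of fibroblasts and the beta receptor of pericytes, mesangial cells and smooth muscle. Dcn encodes decorin, a small leucine-rich proteoglycan that binds collagen fibrils. The ureter wall has its own mesenchyme, which forms smooth muscle and an outer fibroblast layer around the urothelium.

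Foxd1 and Tcf21, stromal transcription factors that were counted in the ureter at levels near those of the kidney, are shown with the 200 bases before their RefSeq transcription start (GRCm38.p6). Foxd1 lies at chr13:98354045-98354244 on the plus strand, and Tcf21 at chr10:22820144-22820343 on the minus strand. Capitals mark the letters TGACAG, the core motif bound by MEIS factors.
Foxd1: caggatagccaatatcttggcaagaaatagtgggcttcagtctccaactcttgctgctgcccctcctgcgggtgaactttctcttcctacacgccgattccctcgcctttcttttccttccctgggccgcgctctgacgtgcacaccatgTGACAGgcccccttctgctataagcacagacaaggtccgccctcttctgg
Tcf21: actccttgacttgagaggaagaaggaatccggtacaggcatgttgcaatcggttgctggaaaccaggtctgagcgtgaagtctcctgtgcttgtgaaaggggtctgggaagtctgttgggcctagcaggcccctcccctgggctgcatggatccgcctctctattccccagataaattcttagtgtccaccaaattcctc
Among the members, windows of 5 were used from the RefSeq promoter set, which held 32851 windows of 27025 genes. The other members were not searched. The windows of the 250 bases before the start were searched on both strands for TGACAG, for the E-box CAGCTG bound by basic helix-loop-helix factors, for the forkhead core TAAACA and for the TATA box TATAAA. The motif TGACAG ends with the letters that open CAGCTG, so matches of both can overlap. TGACAG was found in the Foxd1 window alone among the 5, at position -50, and in 15.9% of all windows. TATAAA was found in the Meis2 window alone among the 5, at position -152, and in 12.4% of all windows. CAGCTG, held by 13.0% of all windows, and TAAACA, held by 12.0%, were in none of the 5. The ratio of observed to expected CpG pairs was 0.600 for Foxd1, 0.595 for Meis1, 0.497 for Meis2, 0.293 for Tcf21 and 0.216 for Pdgfra, against a median of 0.373 over all windows. These are matches of letters and were not tested as binding sites.

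The labels were checked before the members were compared. Libraries held 36410246 to 66095616 estimated counts, the least in the Ahnak KO ureter. Titles of the ureter samples name kidney, while their source and their column names give ureter. The summed level of 7 urothelium markers was 6663 and 7515 CPM (counts scaled to the library size with TMM factors) in the libraries labelled ureter and 56.1 to 63.5 CPM in kidney, and that of 8 kidney tubule markers was 5.59 and 7.70 CPM in ureter and 1463 to 1774 CPM in kidney, with 5 of the 8 at 0 in both ureter libraries. Ahnak was counted in every library, at 139 and 130 CPM in KO kidneys, 183 and 189 CPM in WT kidneys, 635 CPM in the KO ureter and 727 CPM in the WT ureter. In the authors' abundance per transcript length (TPM) the ureter order was reversed, at 88.0 in KO and 77.5 in WT. Ahnak was lower in KO than in WT kidneys, at levels that did not overlap. The log2 difference was -0.47 (95% interval -0.70 to -0.23, unadjusted p = 0.00265 by edgeR). It was not called after adjustment (adjusted p = 0.9999), in a test that called 2 of 16481 genes. At an unadjusted p under 0.05, 1.38% of the genes passed. A count over the whole gene does not show whether the disrupted exon was read, so Ahnak KO and WT stand for the labels throughout. Xist, the X-inactivation RNA of female cells, was at 2915 CPM in KO kidney 1 and at 0.354 to 0.699 CPM in the other 5 libraries, and the ribosomal RNA precursor Rn45s took 8.06% of the counts of the KO ureter and 0.496% to 0.632% elsewhere. The spread seen by the p-values is that between these libraries. The sources did not say how the animals were divided among them.

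Per transcript length, Tcf21 was the most abundant member in kidney and Dcn in ureter, while Foxd1 was the least abundant in both tissues. Kidney levels in TPM (the authors' abundance per transcript length and depth, n = 4) were 267 ± 54.1 (SD) for Tcf21, 95.5 ± 26.9 for Dcn, 63.4 ± 5.41 for Pdgfra, 57.3 ± 6.05 for Pdgfrb, 56.4 ± 3.20 for Meis1, 56.4 ± 27.7 for Meis2 and 14.0 ± 1.80 for Foxd1. In this order Tcf21 stood above Dcn, and Foxd1 below Meis2, in ranges that did not overlap between libraries. The ranges of the other neighbours, from Dcn down to Meis2, overlapped. In ureter the TPM of the KO and the WT library were 2955 and 2158 for Dcn, 157 and 245 for Tcf21, 88.6 and 77.7 for Pdgfra, 40.5 and 67.1 for Meis1, 25.3 and 38.2 for Meis2, 22.8 and 26.7 for Pdgfrb, and 11.7 and 12.5 for Foxd1. Only Meis2 and Pdgfrb overlapped among neighbours of the ureter order.

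Between ureter and kidney, 3 of the 7 members differed. Dcn and Pdgfra were higher in ureter, and Pdgfrb was lower. No difference was called for the 4 transcription factors. The test was edgeR's quasi-likelihood test over all 6 libraries with genotype as a term, and a gene was called at an adjusted p under 0.05 (Benjamini-Hochberg). Differences between the tissues were common in the table, with 45.0% of 16873 genes called, 21.4% higher and 23.7% lower in ureter, so the members' share of 3 in 7 was close to that of all genes. The same 3 members had levels that did not overlap between the tissues, against 61.0% of all genes. In bulk RNA, fewer cells of a type and less RNA per cell cannot be told apart.

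Foxd1, the founding factor of the renal stroma, was counted in every ureter library at about its kidney level. Its CPM was 15.4 and 19.7 in KO kidneys, 14.1 and 15.7 in WT kidneys, 18.8 in the KO ureter and 17.7 in the WT ureter. Both ureter values lay within the range of the kidneys. The log2 difference of ureter minus kidney was 0.18 (SE 0.166, 95% interval -0.22 to 0.58, adjusted p = 0.424 by edgeR), and it was -0.11 when libraries were scaled by their totals alone.

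Tcf21 was 133 and 142 CPM in KO kidneys, 141 and 198 CPM in WT kidneys, 126 CPM in the KO ureter and 172 CPM in the WT ureter. WT kidney 2 was the highest library and the KO ureter the lowest. The log2 difference of ureter minus kidney was -0.051 (SE 0.149, 95% interval -0.41 to 0.31, adjusted p = 0.805 by edgeR), and its sign turned without WT kidney 2 (0.054) or without the KO ureter (0.026). Podocyte markers stood far lower in ureter beside these Tcf21 levels. Of 8 podocyte markers 6 were lower in ureter, as were 23.7% of all genes. Nphs1, which encodes nephrin of the filtration slit, was at 33.0 to 50.3 CPM in kidney and at 0 in both ureter libraries. The part of podocytes in the Tcf21 levels was not tested.

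Meis1 was 83.0 and 91.6 CPM in KO kidneys, 95.2 and 91.5 CPM in WT kidneys, 90.3 CPM in the KO ureter and 131 CPM in the WT ureter. The WT ureter stood above all other libraries, and the KO ureter lay among the kidneys. The log2 difference of ureter minus kidney was 0.28 (SE 0.124, 95% interval -0.023 to 0.57, adjusted p = 0.117 by edgeR). Without the KO ureter it was 0.49 with an adjusted p of 0.0425, without the WT ureter it was 0.045 with an adjusted p of 0.814, and scaled by library totals alone it was -0.0092.

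Meis2, the close paralog of Meis1, had the largest spread among the kidneys of the 7 members relative to its mean (129 ± 61.8 CPM, SD, n = 4). It was 178 CPM in KO kidney 1 and 65.9 CPM in KO kidney 2, 186 CPM in WT kidney 1 and 85.6 CPM in WT kidney 2, 80.4 CPM in the KO ureter and 106 CPM in the WT ureter. The kidney libraries numbered 1 were high in both genotypes and those numbered 2 were low, with a gap of 1.05 on the log2 scale between the lower of the high pair and the higher of the low pair. Both kidney libraries numbered 1 stood past 2-fold above both numbered 2 for 0.0667% of 16481 genes, and for Meis2 alone among the members. For Foxd1, Tcf21, Meis1, Pdgfra, Pdgfrb and Dcn the libraries numbered 1 did not both stand above those numbered 2, with gaps of -0.57 to -0.012. Foxd1 and Tcf21 split in the reverse direction, by less than 2-fold. Foxd1 was at 15.7 and 19.7 CPM in kidney libraries numbered 2 and at 14.1 and 15.4 CPM in those numbered 1. Tcf21 was at 142 and 198 CPM against 133 and 141 CPM. The column headers of the ureter libraries carry the number 2 as well. The further number in each ureter header is also that of the kidney library numbered 2 of the same genotype. What these numbers stand for was not given. The log2 difference of ureter minus kidney for Meis2 was -0.47 (SE 0.452, 95% interval -1.56 to 0.62, adjusted p = 0.431 by edgeR). It was -0.075 without KO kidney 1, -0.20 without WT kidney 1, -0.68 without KO kidney 2 and -0.69 without WT kidney 2, and among libraries numbered 2 alone it was 0.30 (SE 0.116, adjusted p = 0.116).

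**Figure D1:**
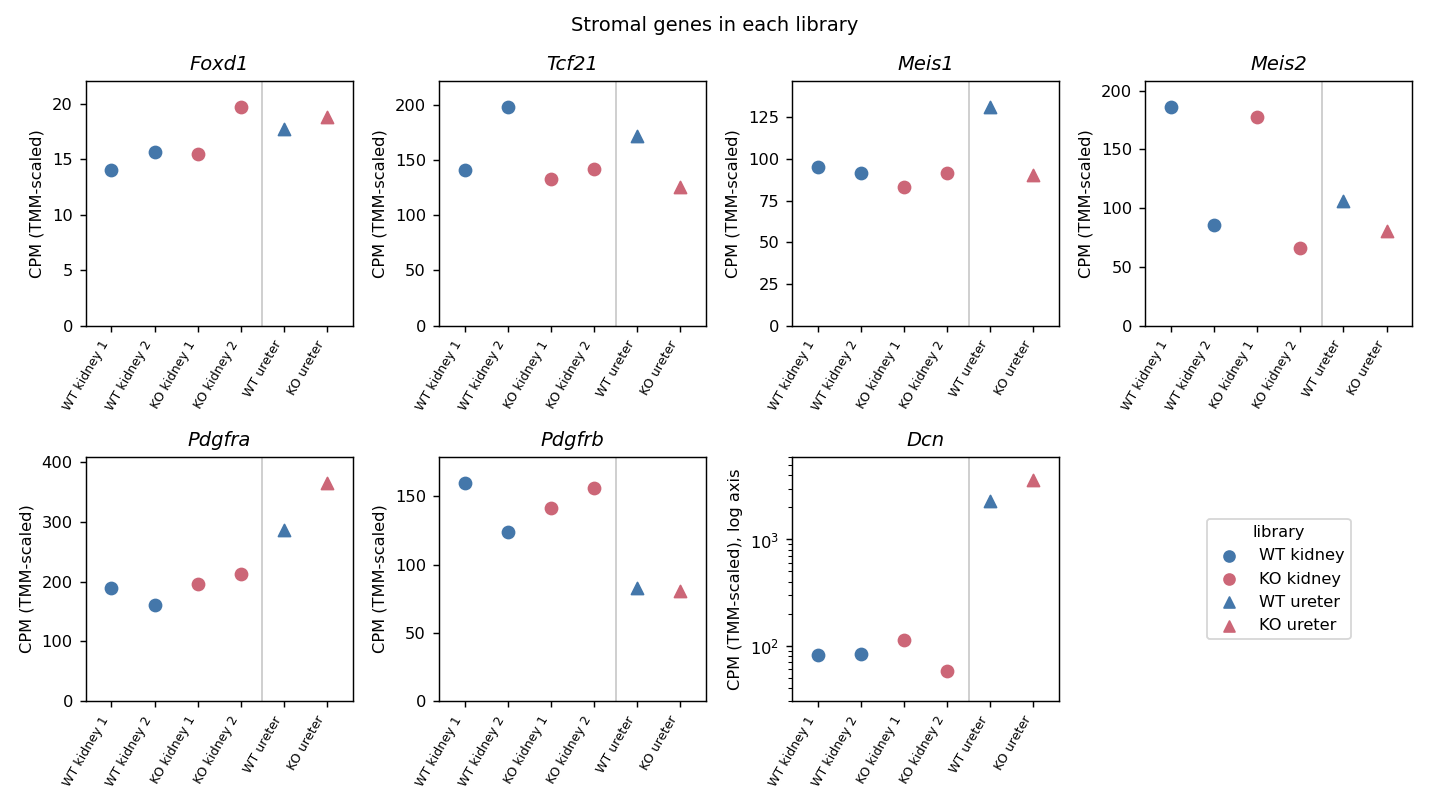
CPM (TMM-scaled, log axis for Dcn) of each member in each of the 6 libraries. Points are single libraries, circles for kidney and triangles for ureter, blue for WT and red for KO. Dcn stands at 57.8 to 114 CPM in kidney and at 2312 and 3609 CPM in ureter, Pdgfrb is lower in both ureter libraries, and Meis2 separates the kidney libraries numbered 1 from those numbered 2 in both genotypes.

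Pdgfra and Pdgfrb moved apart between the tissues. Pdgfra was 196 and 212 CPM in KO kidneys, 190 and 160 CPM in WT kidneys, 365 CPM in the KO ureter and 286 CPM in the WT ureter. Both ureter libraries stood above all 4 kidneys. The rise was 1.71-fold (log2 0.77, SE 0.109, 95% interval 0.51 to 1.03, adjusted p = 0.00201 by edgeR).

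Pdgfrb was 142 and 156 CPM in KO kidneys, 160 and 124 CPM in WT kidneys, 80.9 CPM in the KO ureter and 82.7 CPM in the WT ureter. Both ureter libraries stood below all 4 kidneys and close to each other. Pdgfrb was 1.78-fold lower in ureter (log2 -0.83, SE 0.131, 95% interval -1.14 to -0.51, adjusted p = 0.00325 by edgeR). The TPM ratio of Pdgfra over Pdgfrb was 1.16 and 1.14 in KO kidneys, 1.01 and 1.13 in WT kidneys, 3.88 in the KO ureter and 2.91 in the WT ureter. Near parity in kidney thus gave way to an excess of the alpha receptor in ureter. A two-sided exact permutation test over the 15 arrangements of the 6 libraries gave p = 0.0667, the smallest value it allows. The levels of both genes already separated the tissues, so their ratio had to separate them too, and this p-value is no further support.

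The TPM ratio of Meis2 over Meis1 was above 1 in the kidney libraries numbered 1 and below 1 in the other 4 libraries. It was 1.5 in KO kidney 1 and 0.499 in KO kidney 2, 1.35 in WT kidney 1 and 0.654 in WT kidney 2, 0.624 in the KO ureter and 0.569 in the WT ureter. The ureter values lay between those of the kidney libraries numbered 2. The same exact permutation test of ureter against kidney gave p = 0.333.

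**Figure D2:**
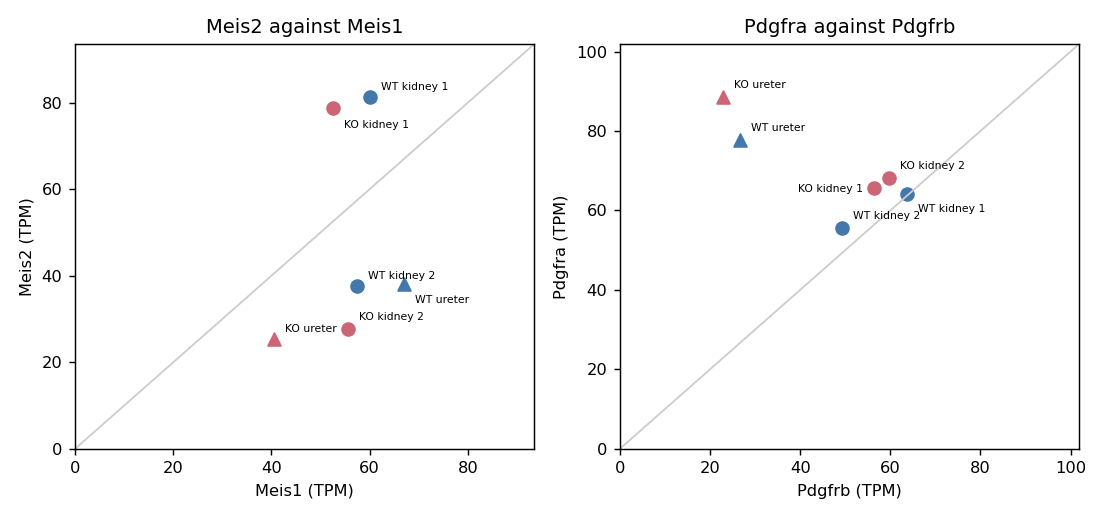
TPM of Meis2 against Meis1 (left) and of Pdgfra against Pdgfrb (right) in the 6 libraries, circles for kidney and triangles for ureter, blue for WT and red for KO, with a grey line where both genes are equal. Kidney libraries numbered 1 lie above the line for the Meis pair and those numbered 2 below it, and the ureter libraries lie far above the line for the receptor pair at ratios of 3.88 and 2.91.

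Dcn had by far the largest difference of the 7. It was 114 and 57.8 CPM in KO kidneys, 82.3 and 83.0 CPM in WT kidneys, 3609 CPM in the KO ureter and 2312 CPM in the WT ureter. The WT kidneys nearly coincided, while the KO kidneys lay on either side of them. Dcn was 34.6-fold higher in ureter (log2 5.11, SE 0.279, 95% interval 4.44 to 5.78, adjusted p = 4.83e-05 by edgeR). Between the ureter library and each kidney library of its genotype, the log2 difference was 4.98 and 5.95 in KO and 4.79 and 4.80 in WT.

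The 3 calls were also made without KO kidney 1 and without the KO ureter, the libraries that stood apart in Xist and Rn45s. Without KO kidney 1 the log2 differences were 5.32 for Dcn, 0.74 for Pdgfra and -0.85 for Pdgfrb. Without the KO ureter they were 4.81, 0.71 and -0.78. Scaling by library totals alone shifted the median of all genes from -0.076 to -0.36 on the log2 scale and the split of calls from 3603 higher of 7595 to 2371 higher of 8479. On that scale Pdgfra was at 0.48, Pdgfrb at -1.12 and Dcn at 4.82, and all 3 were called.

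**Figure D3:**
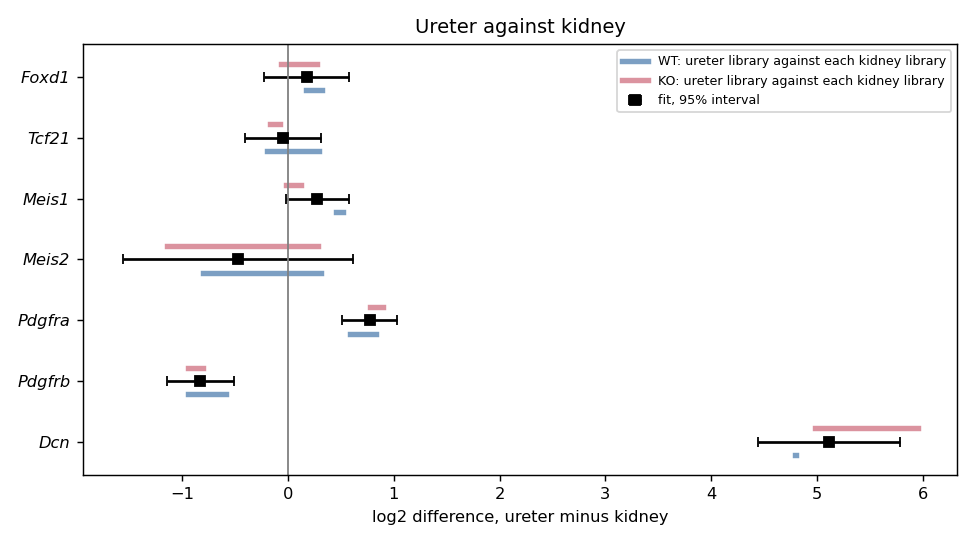
Log2 difference of ureter minus kidney for each member. Squares and whiskers are edgeR estimates with 95% intervals over 6 libraries, and the coloured bars span the differences between the ureter library and each kidney library of the same genotype (red KO, blue WT). The intervals of Pdgfra, Pdgfrb and Dcn exclude 0, Dcn at 5.11, and those of the 4 transcription factors include it.

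The partners of these genes split in the same comparison. Of 15 other genes of the renal stroma, 8 were lower in ureter, 2 higher and 5 not called. Over all genes 23.7% were lower and 21.4% higher. The list's median log2 difference was -0.76 against -0.076 over all genes. Lef1, a factor of Wnt signalling, was at 22.7 to 27.9 CPM in kidney and at 3.56 and 3.01 CPM in ureter (log2 -2.92). Aldh1a2, which makes retinoic acid and is prominent in kidney stroma, fell from 212 to 265 CPM in kidney to 39.4 and 41.6 CPM in ureter (log2 -2.54). The homeobox gene Alx1 was lower as well (log2 -1.58). Dlk1, a membrane protein of immature mesenchyme, went the other way, from 8.65 to 15.1 CPM in kidney to 323 and 336 CPM in ureter (log2 4.86). Without the WT ureter the list gave 6 lower and 1 higher.

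Beside Meis1 and Meis2, 9 further TALE homeobox genes were tested, of which 4 were lower in ureter, 2 higher and 3 not called. The shares over all genes were 23.7% lower and 21.4% higher. Tgif2 (log2 -1.10) and Pbx3 (-0.90) were lower, and Tgif1 (0.69) was higher. Without WT kidney 2 or without the WT ureter, 4 were lower and 0 higher. The list's median was -0.40, while Meis1 was at 0.28 and Meis2 at -0.47 without a call.

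Among the 4 ligands of the PDGF receptors, 2 were lower in ureter and 0 higher. Pdgfc, a ligand of the alpha receptor, was at 73.0 to 80.5 CPM in kidney and at 32.6 and 25.5 CPM in ureter (log2 -1.41), and Pdgfa, also a ligand of the alpha receptor, was at -0.91. Pdgfb (-0.14) and Pdgfd (0.58) were not called. Over all genes 45.0% were called and 23.7% were lower in ureter, so 2 called of 4 is close to the share called among all genes. A link of these ligands to the higher Pdgfra was not tested.

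Pericyte and mesangial genes were mixed beside the lower Pdgfrb, with 4 of 11 lower, 5 higher and 2 not called (median -0.45). Among all genes, 23.7% were lower and 21.4% higher in ureter. Ren1, the renin gene, ranged from 116 to 406 CPM in kidney and was at 5.28 and 2.64 CPM in ureter (log2 -5.99). Itga8, an integrin of mesangium and nephrogenic mesenchyme, was at -2.37 and the vessel-stabilising ligand Angpt1 at -1.81. Des, which encodes desmin of smooth muscle and mesangial cells, was higher (log2 2.35).

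Fibroblast matrix genes rose with Dcn, 13 of 13 higher in ureter with a median log2 difference of 2.57. Across the table, 21.4% of genes were higher and 23.7% lower in ureter. Lum, which encodes lumican and belongs to the same proteoglycan family as Dcn, was at 7.17 to 13.4 CPM in kidney and at 1173 and 793 CPM in ureter (log2 6.50). Postn, Mfap5 and Aspn, all of which encode proteins of the extracellular matrix, were at 4.33, 3.87 and 3.78. Among 9 other small leucine-rich proteoglycans, 5 of which are in the matrix list too, 8 were higher in ureter and 1 was not called. Smooth muscle markers were higher in ureter as well. All 8 smooth muscle genes were called higher, with summed levels of 588 to 690 CPM in kidney and of 7039 and 7761 CPM in ureter, and 4 of 7 ureteric mesenchyme genes were higher. The endothelial sum was 594 to 699 CPM in kidney and 611 and 633 CPM in ureter. Of 7 nephron progenitor genes 6 were lower in ureter and 1 higher. The part of these cell types in the members' levels was not tested.

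**Figure D4:**
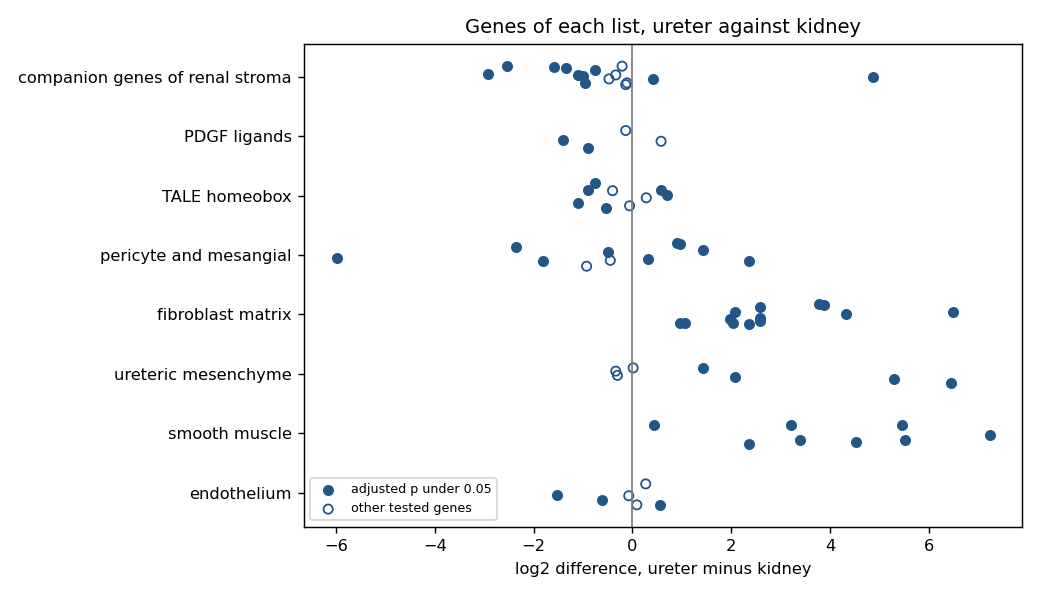
Log2 difference of ureter minus kidney for the genes of 8 lists. Each point is 1 gene of the edgeR fit over 6 libraries, filled where the adjusted p was under 0.05, with the vertical place within a list drawn at random. All 13 fibroblast matrix genes and all 8 smooth muscle genes lie to the right of 0, and the renal stroma list lies mostly to the left with Dlk1 at 4.86.

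Between Ahnak KO and WT kidneys, none of the 7 members was called, in a comparison where edgeR called 2 of 16481 genes (0.0121%). At an unadjusted p under 0.05, 0 members and 1.38% of genes passed, and the Wald test of DESeq2 called 46 genes and 0 members. The adjusted p was 0.9999 for each member.

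Pdgfra was the one member whose kidney levels did not overlap between the genotypes, as was the case for 26.3% of all genes. It was 204 ± 11.9 CPM (SD, n = 2) in KO and 175 ± 21.0 CPM in WT kidneys, a log2 difference of 0.22 (SE 0.122, 95% interval -0.075 to 0.52, unadjusted p = 0.117 by edgeR). It was 0.10 without WT kidney 2 and 0.35 without WT kidney 1. Foxd1 was 17.6 ± 3.01 CPM in KO and 14.9 ± 1.14 CPM in WT kidneys (log2 0.24, 95% interval -0.22 to 0.70). Its difference was 0.049 without KO kidney 2 and 0.41 without KO kidney 1, with no call. Tcf21 was 137 ± 6.26 CPM in KO and 169 ± 40.3 CPM in WT kidneys (log2 -0.30, 95% interval -0.71 to 0.11). Without WT kidney 2 the Tcf21 difference was -0.036, and without WT kidney 1 it was -0.53 with no call.

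Meis1 had the narrowest interval of the 7, with a log2 difference of KO minus WT kidney of -0.094 (95% interval -0.36 to 0.18). Pdgfrb was at 0.072 (95% interval -0.28 to 0.42). Meis2 had the widest, at -0.16 (95% interval -1.41 to 1.09). Without KO kidney 2 its difference was 0.38, without WT kidney 1 it was 0.51, and without KO kidney 1 it was -1.04, none of them called.

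Dcn was at 0.053 (SE 0.290, 95% interval -0.65 to 0.76). Its value rested on which KO kidney was kept. Without KO kidney 1, the library with Xist, it was -0.51 (unadjusted p = 0.0107, adjusted p = 0.982 by edgeR), and without KO kidney 2 it was 0.45 (adjusted p = 0.497). In the lists of renal stroma, TALE homeobox genes, PDGF ligands, pericyte genes and fibroblast matrix, 0 of 51 different genes were called between the genotypes in kidney, and the list medians lay between -0.028 and 0.11.

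In ureter, with 1 library per genotype, the libraries were compared by their ratio. None of the 7 members reached a 2-fold ratio, which 10.2% of 16117 genes passed. Intervals given here cover counting error only and say nothing on variation between mice. Dcn was higher in the KO library, with a log2 ratio of KO over WT of 0.64 (95% interval 0.63 to 0.66) from 107327 and 119031 counts. Pdgfra was higher too, at 0.35 (0.32 to 0.39). Meis1 was lower in the KO library at -0.53 (-0.60 to -0.47), Tcf21 at -0.45 (-0.51 to -0.40) and Meis2 at -0.40 (-0.47 to -0.33). Foxd1 at 0.088 (-0.064 to 0.24) and Pdgfrb at -0.031 (-0.10 to 0.041) had intervals that include 0.

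A fit over all 6 libraries, added after the values were seen, tested the same difference under the assumption that the ureter libraries vary like the kidneys. It called 0 of 7 members and 0.570% of 17557 genes. At an unadjusted p under 0.05, 1 member and 18.5% of genes passed. That member was Meis1, at -0.54 (95% interval -0.93 to -0.15, unadjusted p = 0.0150, adjusted p = 0.173 by edgeR). The interval of each other member included 0, and that of Dcn was -0.37 to 1.65.

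Scaling touched these ratios. With library totals alone the median of all genes moved from -0.016 to -0.20, and Dcn was then at 0.45, Pdgfra at 0.15, Meis1 at -0.73, Tcf21 at -0.65, Meis2 at -0.60, Pdgfrb at -0.23 and Foxd1 at -0.10. Dcn and Pdgfra were above 0, and Meis1, Tcf21 and Meis2 below it, under both scalings, while Foxd1 changed its sign. Fibroblast matrix genes stood at a median log2 ratio of 0.34 in the KO over the WT ureter, with 3 of 13 past 2-fold higher and 0 lower, and smooth muscle genes at -0.18 with 0 past 2-fold. With library totals alone the matrix median was 0.14, with 1 of 13 past 2-fold, and the smooth muscle median -0.37. Striated muscle genes were at a median of -1.62 with 4 of 6 past 2-fold lower in the same pair, in which Rn45s took 8.06% of the KO counts and 0.626% of the WT counts. Their part in the members' ratios was not tested.

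**Figure D5:**
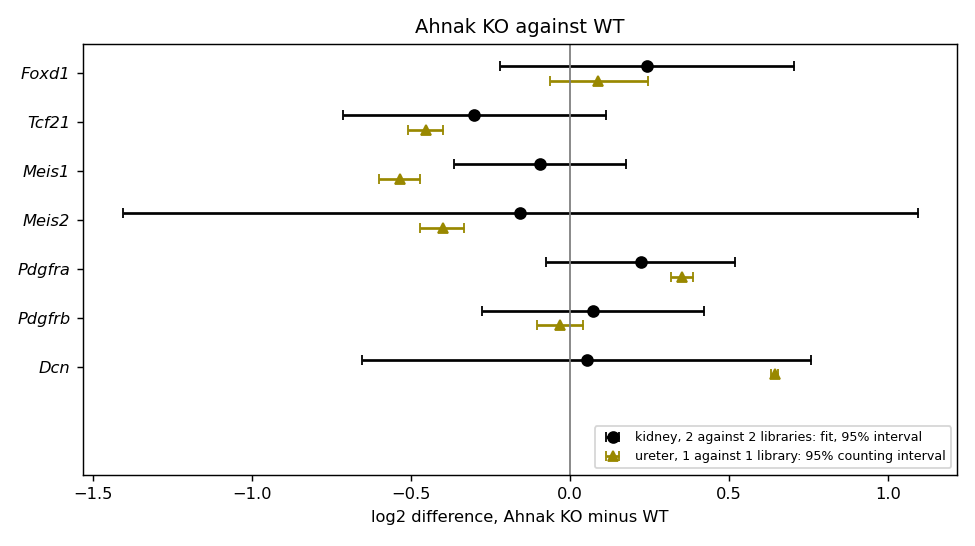
Log2 difference of Ahnak KO minus WT for each member. Circles are edgeR estimates in kidney with 95% intervals from 2 against 2 libraries, and triangles are ratios of the single ureter libraries with 95% intervals for counting error only. All 7 kidney intervals include 0, and no ureter ratio passes 1 on the log2 scale.

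The difference between the KO effect in ureter and that in kidney was fitted as an interaction term, which rests on the spread between kidney libraries. It was called for 0 of 7 members and for 0.108% of 17557 genes. At an unadjusted p under 0.05, 0 members and 12.4% of genes passed. Meis1 came nearest with a log2 difference of -0.45 (95% interval -0.92 to 0.033, unadjusted p = 0.0628, adjusted p = 0.429 by edgeR). Dcn was at 0.59 (95% interval -0.65 to 1.82, adjusted p = 0.712), and the adjusted p of the other members was 0.918 or more.

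The genes with profiles most like each member over the 6 libraries were found among 14588 genes with a mean of at least 1 CPM, by the root mean square difference of centred log2(CPM + 0.5) values. Dcn was followed most closely by Myh11, the smooth muscle myosin gene, at a distance of 0.225, then by Adtrp and Ctse. Myh11 was at 29.4 to 48.3 CPM in kidney and at 1705 and 1446 CPM in ureter. Pdgfra was nearest to Nenf (0.0354), Tagln2 and Chmp4b, and Pdgfrb to Robo4 (0.0526), Snhg17 and Chaf1b. Foxd1 was near to Mfsd11 (0.0428) and Snhg15, Tcf21 to 5830454E08Rik (0.0437), Fv1 and Marf1, and Meis1 to Capn15 (0.0146), AI464131 and Mxd3. Meis2 had AU015836 (0.169), 1700030C10Rik and 1110020A21Rik as its nearest, all at levels far below its own CPM. AU015836 was at 2.12 and 2.08 CPM in the kidney libraries numbered 1 and at 0.741 and 0.623 CPM in those numbered 2. With 6 libraries in 2 tissues, likeness among these profiles is a description only.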

How the data were processed

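RNA-seq libraries of PN1 mouse kidney (2 Ahnak KO, 2 WT) and ureter (1 Ahnak KO, 1 WT) were analysed. The deposited table held an estimated count of reads per gene (whole numbers, not normalized), and FPKM and TPM computed by the authors. The sources differ on its making: the study's methods name Cutadapt, STAR, Cufflinks and GRCm39, and the submitters' processing notes name Trimmomatic, HISAT2, StringTie and mm10. Remapping was not done, and estimates can differ between such pipelines.

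Counts were tested with edgeR 4.0.16 in R 4.3.3 (TMM, filterByExpr, quasi-likelihood test, Benjamini-Hochberg adjustment), a test planned for read counts and applied to estimated counts. Ureter against kidney had genotype as a term, KO against WT used the 4 kidney libraries, and an interaction was fitted on all 6. SE was the absolute log2 difference divided by the square root of F, an approximation. Ureter libraries were compared by log2(CPM + 0.5) where the larger of both counts was 10 or more, with 95% Clopper-Pearson intervals. Alternatives used DESeq2 1.42.0, limma 3.58.1 on log2(FPKM + 1) and log2(FPKM + 0.1), other scalings, and left-out libraries.

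The 7 members and the gene lists were chosen with earlier results of these data known. List genes were named by largest absolute difference, up to 4 per list, and the 3 likest genes per member by profile. Some genes that these rules name are not reported here. Replicate numbers named no shared animal, and same-numbered kidney libraries deviated with r = -0.19 across 16481 genes, so they were not paired. The column header of each ureter library carries the same numbers as a kidney library of its genotype. Whether these libraries share animals was not given. The tissue test took all libraries as independent, and a pairing of ureter with kidney was not tested.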

Additional observations from a re-analysis of the deposited data

How the results depend on the processing

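Ureter against kidney. The calls of Pdgfra, Pdgfrb and Dcn and their directions were the same under all 16 alternatives, and 3 members were called in each except 2, where Meis1 joined them (log2 0.48, adjusted p = 0.0337 in WT libraries only, and 0.49, adjusted p = 0.0425 without the KO ureter). The number of genes called was 4841 among libraries numbered 2 alone, chosen after seeing the data, against 7595. Members without a call changed sign as follows: Foxd1 to -0.11 and Meis1 to -0.0092 with library totals alone; Foxd1 to -0.10 and Meis1 to -0.023 with limma on log2(FPKM + 1), and to -0.12 and -0.025 with log2(FPKM + 0.1); Tcf21 to 0.019 in WT libraries only, 0.026 without the KO ureter and 0.054 without WT kidney 2; and Meis2 to 0.30 among libraries numbered 2. With each library left out in turn, Tcf21 lay between -0.16 and 0.054.

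KO against WT kidney. No member was called under any alternative. The number of genes called was 2, against 46 with DESeq2's Wald test, 0 with all 6 libraries, 0 with limma on either FPKM scale and 3 to 87 when each library was left out. With the replicate block it was 0, and with the block crossed, chosen after seeing the data because same-numbered libraries deviated in opposite directions, it was 1. Dcn was -0.026 with the replicate block and -0.026 with the crossed block, -0.042 and -0.045 with limma, and -0.51 without KO kidney 1. Meis2 was 0.38 without KO kidney 2 and 0.51 without WT kidney 1, and Pdgfrb was -0.0063 without KO kidney 2 and -0.10 without WT kidney 2. With each library left out in turn, Dcn lay between -0.51 and 0.45, Meis2 between -1.04 and 0.51 and Pdgfrb between -0.10 and 0.26. The interaction called 19 genes with edgeR and 491 with DESeq2. In ureter, no member passed 2-fold under any scaling, and with the ratio of FPKM + 0.1 Foxd1 was -0.12. The cause of these changes was not tested.

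One ureter library per genotype leaves the spread within ureter unseen, and the tissue test takes it from the kidneys and from the fit. With 2 kidney libraries per genotype, members with a wide spread such as Meis2 and Dcn have intervals that reach past 0.6 in both directions on the log2 scale. The estimated counts do not tell isoforms apart, and single cells were not measured.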

Other observations

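The separation of kidney libraries by number that Meis2 showed was shared by 21 other genes, chosen after their values were seen. Both kidney libraries numbered 1 stood past 2-fold above both numbered 2 for 11 genes, Meis2 among them, and the reverse held for 11 genes, each 0.0667% of the 16481 tested. Gtf2a1, which encodes a subunit of the general transcription factor TFIIA, was at 75.9 and 74.5 CPM in the kidney libraries numbered 1 and at 13.0 and 14.7 CPM in those numbered 2, in KO and WT order, with 66.7 CPM in the KO ureter and 66.2 CPM in the WT ureter. Tnfaip1 was at 121 and 116 CPM against 31.8 and 36.1 CPM, with 123 and 116 CPM in ureter. Kirrel went the other way, at 20.1 and 17.4 CPM against 77.5 and 83.7 CPM, with 67.4 and 65.0 CPM in ureter. On the log2 scale both ureter libraries were nearer to the kidney libraries numbered 2 for 8 of the 22 genes, Meis2 and Kirrel among them, and neither was for 11, Gtf2a1 and Tnfaip1 among them.

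Of 6 striated muscle genes 6 were higher in ureter than in kidney, where 21.4% of all genes were higher and 23.7% lower. Their summed levels were 5.55 to 7.59 CPM in kidney, 158 CPM in the KO ureter and 377 CPM in the WT ureter. The count was 3 without the WT ureter and 4 without either WT kidney. Mesothelium genes were higher for 2 of 3, and leukocyte genes for 2 of 5 with 1 lower. Without WT kidney 1 the leukocyte list gave 3 higher and 1 lower, and without either KO kidney or WT kidney 2 it gave 0 lower. Its counts also fell without the KO ureter. Of the 4 red blood cell genes 0 were called, at sums of 42.2 to 849 CPM in kidney and of 492 and 873 CPM in ureter. Of these 1 was called higher without either KO kidney and 1 lower without the WT ureter. Of the adipocyte genes 2 were tested, 1 of them higher, and the count was 0 without KO kidney 1, KO kidney 2, WT kidney 1 or the KO ureter and 2 without the WT ureter. Of the adrenal cortex genes 3 were tested, 1 higher and 1 lower, and 0 were lower without either WT kidney or the WT ureter.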
